A study of Homo sapiens with 6 samples.

Results

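The genes examined here encode the chaperones, folding enzymes, stress sensors, degradation factors and membrane channel of the endoplasmic reticulum (ER), the compartment in which secreted and membrane proteins are folded. They are a list of 39 genes picked by gene name out of the 25336 genes in the deposited count table, with no measured value in the rule. All 39 had a row and passed the filter on low counts. The RNA came from THP-1, an established human line of monocytic leukaemia cells. It was sequenced as 3 control libraries and 3 libraries of cells treated with pristimerin, a triterpenoid quinone methide from plants. The series title is about pristimerin, erastin and ferroptosis (death of cells by iron-driven lipid oxidation), and about the factor ATF3 and the transporter SLC7A11. The labels name only control and pristimerin as treatments, and give no vehicle, dose or time and no erastin for any of the 6 libraries.

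When unfolded proteins accumulate in the ER, 3 membrane sensors respond: IRE1 (gene ERN1), ATF6 and PERK. IRE1 splices the messenger RNA of XBP1 so that an active transcription factor is made, ATF6 is cut to release another, and PERK slows translation. XBP1 and ATF6 then raise transcription of ER chaperones and of the machinery for ER-associated degradation, in part through promoter elements called ER stress response elements. New proteins enter the ER through the SEC61 channel, next to the translocon-associated protein complex and the signal peptidase that removes their leader sequences. A count per gene does not separate spliced from unspliced XBP1 messenger RNA, so XBP1 splicing was not measured.

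The libraries held from 19057219 to 30568593 counts. Levels are given as CPM, the counts of a gene relative to the library total, scaled by TMM, a normalisation that assumes most genes do not change. Differences are log2 fold changes of pristimerin over control from edgeR's quasi-likelihood test, with the standard error (SE). A gene was called higher or lower when its Benjamini-Hochberg adjusted p over the 15305 genes tested was under 0.05. Of 12 markers of the monocytic lineage, 9 were above 1 CPM, with LYZ at 1368 to 1602 CPM, whereas CD14, CD68 and CD86 were at or below 1.07 CPM. Those 12 markers summed to 2856 to 3073 CPM in the control and 2929.7 to 3051 CPM in the pristimerin libraries, and ITGAM, FCGR1A and ELANE among them were lower with pristimerin. The markers of T, erythroid and epithelial cells were at most 0.244 CPM. Whether the replicates were grown apart is not in the labels, so each p-value covers the spread of these 6 libraries alone, and that spread may be technical. In both groups replicate 2 stood apart on the second principal component, which held 13% of the variance, at -10.2 and -7.92 against 0.4 to 8.14 for the other 4 libraries. In bulk RNA, fewer cells of a kind and less RNA per cell cannot be told apart.

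Pristimerin left most of these ER genes close to their control level. Of the 39, 5 were higher (ERO1A, EDEM1, SEC63, DERL1 and XBP1) and 5 were lower (EDEM2, ATF6B, HYOU1, P4HB and PDIA6), by edgeR's quasi-likelihood test with Benjamini-Hochberg adjustment. The other 29 were not called. Among all genes tested, 14.5% were higher and 15.1% were lower, against 12.8% of the ER genes each way, so the share called was not above the background. The share of ER genes called in either direction was 25.6%, beside 29.6% of all genes and 34.4% of the 10415 genes that averaged 5 CPM or more. Their median log2 fold change was -0.04, beside -0.01 over all genes tested. The differences ran from -0.43 for EDEM2 to 0.46 for ERO1A, and 0 of the 39 reached a 2-fold change. Such a change was also rare among all genes. It was called in 530 of the 15305 tested and in 128 of the 10415 that averaged 5 CPM or more. In 6 members every pristimerin library lay above every control library (15.4%, beside 21.0% of all genes), and in 8 every one lay below (20.5%, beside 22.3% of all genes). The split of the calls moved with the scaling and the test. With library totals in place of TMM, 4 members were higher and 9 lower, and with upper-quartile scaling 4 were higher and 7 lower. With limma on log2(FPKM + 1) values, which changes the test and the genes tested (16789) as well as the scaling, 3 were higher and 7 lower. Over all genes the share of calls that were higher went from 48.9% to 30.1% with library totals, to 33.3% with upper-quartile scaling and to 30.9% on log2(FPKM + 1). Without replicate 2 of both groups, 5 were higher and 5 lower.

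**Figure D1:**
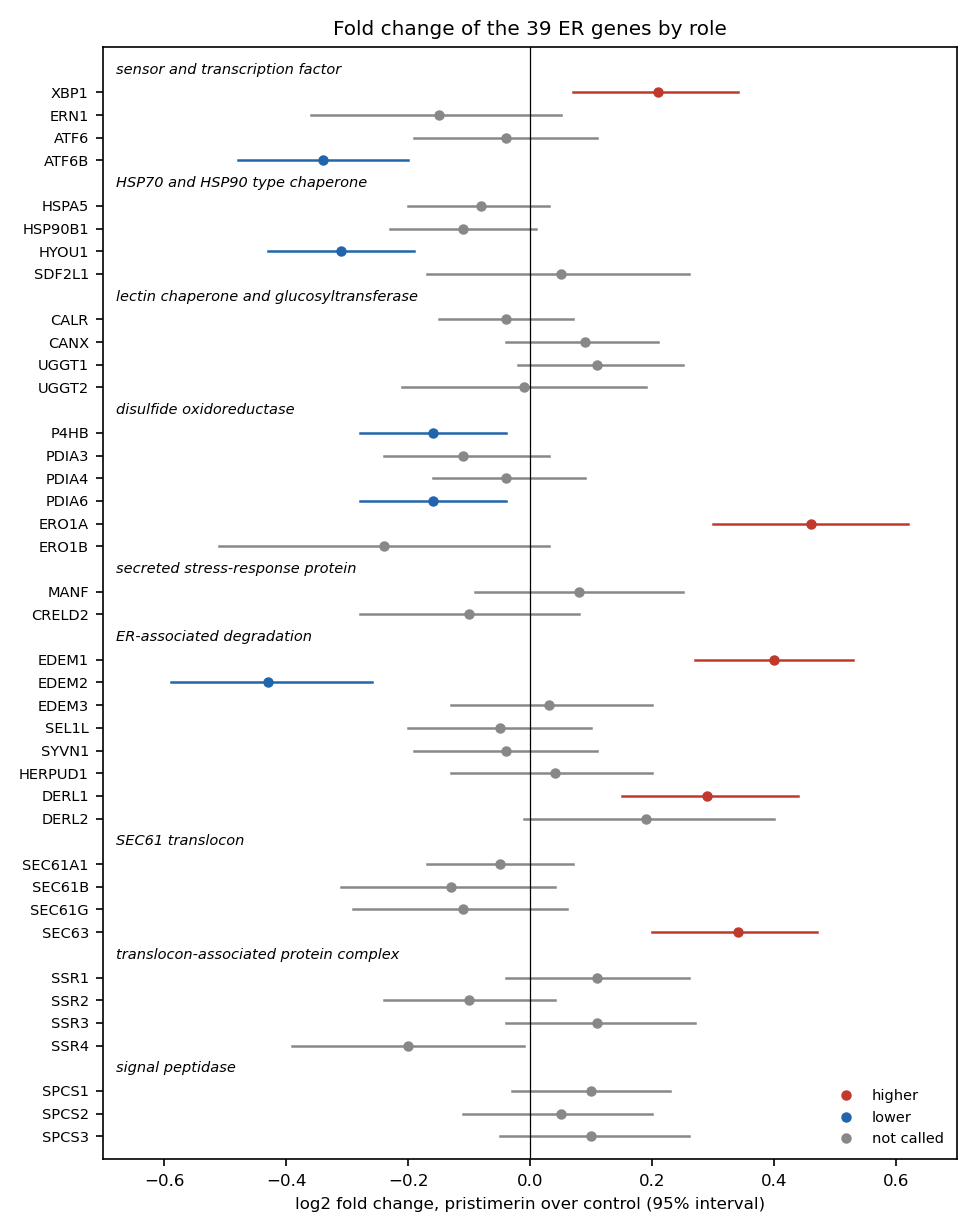
Log2 fold change of pristimerin over control (horizontal axis) for the 39 ER genes, grouped by role, with 95% intervals from edgeR's quasi-likelihood fit. Red marks the 5 genes called higher, blue the 5 called lower and grey the 29 not called, and every point lies between -0.43 and 0.46.

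Promoter sequence was read for these genes because XBP1 and ATF6 are known to act in part through the ER stress response elements. RefSeq promoters on GRCh38.p14, from 250 bases before to 50 bases after the start, were matched for 36 of the 39. The motifs searched on both strands were the ER stress response element (ERSE), written CCAAT, then any 9 bases, then CCACG; the ERSE-II, written ATTGG, any 1 base, then CCACG; and the unfolded protein response element (UPRE), TGACGTGG or TGACGTGA. An exact ERSE was found in 7 of the 36 (19.4%), beside 0.0806% of all 27305 promoters of the table, and an ERSE-II in 3 (8.33%, beside 0.0549%). Among the 11017 promoters of genes tested the shares were 0.127% and 0.0998%. The list was picked to hold known genes of the ER stress response, so its high share describes the list and is no result of these libraries. TGACGTGG was found in 1 of the 36 (2.78%, beside 0.795%) and TGACGTGA in 0, beside 0.407% of all promoters. A match is a string of letters and not a measured binding site, and no match means only that these letters are not in that window.

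The matches in 8 of these promoters are shown because they carry the element in its exact form; each line runs 5′ to 3′ on the strand of the gene, with the motif in capitals and 5 bases on each side. A motif that starts with CGTGG is the element on the opposite strand. Only XBP1 among these 8 genes was called changed. HSPA5 and HYOU1 also carry an exact element and are shown next, and HYOU1 was called lower. Over all 10 members with an ERSE or ERSE-II 20% were called, beside 29.6% of all genes tested.
XBP1: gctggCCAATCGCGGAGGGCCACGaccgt
HSP90B1, first match: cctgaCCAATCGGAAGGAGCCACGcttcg
HSP90B1, second match: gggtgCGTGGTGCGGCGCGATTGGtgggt
CALR: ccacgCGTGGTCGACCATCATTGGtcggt
CANX: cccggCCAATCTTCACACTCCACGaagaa
CRELD2: cctctCGTGGCGAACTCGGATTGGgccat
ERO1B: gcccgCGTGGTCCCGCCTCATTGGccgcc
HERPUD1: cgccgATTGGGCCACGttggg
SDF2L1: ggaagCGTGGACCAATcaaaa

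The whole promoters of HSPA5 and HYOU1 are given because these partner chaperones both carry elements and only HYOU1 was called lower. HSPA5 lies on the minus strand, with its promoter at chr9:125241294-125241593 and its ERSE starting 66 bases before the start. HYOU1 also lies on the minus strand, with its promoter at chr11:119057156-119057455. It holds 2 ERSE-II matches, which start 185 and 79 bases before the start, and a UPRE that overlaps the first of them. Capitals mark these motifs.
HSPA5: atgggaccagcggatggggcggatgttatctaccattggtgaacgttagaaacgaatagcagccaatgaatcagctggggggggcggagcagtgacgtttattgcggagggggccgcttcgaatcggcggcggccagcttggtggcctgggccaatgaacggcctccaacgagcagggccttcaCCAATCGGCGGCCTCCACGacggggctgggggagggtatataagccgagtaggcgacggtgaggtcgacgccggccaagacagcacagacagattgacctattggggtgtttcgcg
HYOU1: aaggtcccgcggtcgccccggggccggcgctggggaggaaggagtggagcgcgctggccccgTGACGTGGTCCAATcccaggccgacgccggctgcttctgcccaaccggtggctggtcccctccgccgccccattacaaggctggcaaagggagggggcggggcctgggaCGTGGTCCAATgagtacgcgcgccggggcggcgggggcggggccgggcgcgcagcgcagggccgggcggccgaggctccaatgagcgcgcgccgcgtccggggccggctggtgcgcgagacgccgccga

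Among the 10 members with an ERSE or ERSE-II, XBP1 was higher, HYOU1 was lower and 8 were not called, with a median log2 fold change of -0.06. Among the 26 with a promoter and no such match, 3 were higher, 4 were lower and 19 were not called, with a median of -0.04. The members with an element were called in 20% of cases, beside 29.6% of all genes tested. Over all 25 tested genes with an exact ERSE or ERSE-II, 5 were higher, 3 lower and 17 not called (32% called), with a median of -0.01. These include the 10 members, and of the 15 other genes 40% were called.

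Of the 4 sensors and transcription factors, XBP1 was higher, ATF6B was lower, and ERN1 and ATF6 were not called. Among all genes 14.5% were higher and 15.1% lower. XBP1, on chromosome 22 (28794555 to 28800597, minus strand, hg38), was at 81.1, 82.3 and 90.4 CPM in the control and 96.1, 98.1 and 98.6 CPM in the pristimerin libraries. All 3 pristimerin libraries lay above all 3 controls. XBP1 rose 1.15-fold (log2 fold change 0.21, SE 0.06, adjusted p = 0.023 by edgeR's quasi-likelihood test). That call was lost in 7 of the 18 alternative settings. XBP1 was not called with library totals (log2 fold change 0.14, adjusted p = 0.12 by edgeR's quasi-likelihood test), with upper-quartile scaling (0.15, adjusted p = 0.093) or on either FPKM scale (0.13 and 0.14, adjusted p = 0.11 by limma). Nor was it called without control replicate 1 (0.18, adjusted p = 0.067), pristimerin replicate 1 (0.22, adjusted p = 0.052) or pristimerin replicate 3 (0.22, adjusted p = 0.065), by edgeR's quasi-likelihood test.

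ERN1, which encodes the sensor IRE1, was at 24.4, 19.7 and 21.6 CPM in the control and 19.4, 21.0 and 18.7 CPM in the pristimerin libraries. These ranges overlapped. Its log2 fold change was -0.15 (SE 0.10, 95% interval -0.36 to 0.05, adjusted p = 0.26 by edgeR's quasi-likelihood test). Over the alternatives it ran from -0.06 without control replicate 1 (adjusted p = 0.7 by edgeR's quasi-likelihood test) to -0.27 without replicate 2 of both groups (adjusted p = 0.04), the only one that called it. ATF6 was at 46.2, 47.8 and 46.6 CPM in the control and 43.1, 49.0 and 45.0 CPM with pristimerin, again overlapping. Its interval was -0.19 to 0.11, so a difference beyond 0.88-fold to 1.08-fold lay outside it.

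ATF6B encodes a relative of ATF6 that is likewise cut in response to ER stress. It lies on chromosome 6 (32115264 to 32128253, minus strand, hg38). ATF6B was at 324, 307 and 318 CPM in the control and 258, 226 and 266 CPM in the pristimerin libraries. Every pristimerin library was below every control. ATF6B fell by 21.0% (log2 fold change -0.34, SE 0.07, adjusted p = 0.00091 by edgeR's quasi-likelihood test) and remained called in each of the 18 alternative settings. Per length, ATF6B was the more abundant of the pair. In deposited FPKM (fragments scaled by gene length and library total), ATF6B was 27.5, 25.3 and 26.8 times ATF6 in the control and 23.5, 18.1 and 23.3 times in the pristimerin libraries. The ratios of the groups did not overlap. A ratio within a library does not depend on the library scaling, and no test was made of it. The size of such a ratio does depend on the gene lengths behind the FPKM, which were not checked. In CPM the control means were 316 for ATF6B and 46.9 for ATF6.

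Of the 4 chaperones of the HSP70 and HSP90 type, HYOU1 was lower and the other 3 were not called, beside the 15.1% lower of all genes. HSPA5 encodes BiP, the main ER chaperone of the HSP70 family and a standard marker of the unfolded protein response. HSPA5 was at 452, 462 and 440.2 CPM in the control and 419.6, 433 and 425 CPM in the pristimerin libraries. All pristimerin libraries lay just below all controls. The log2 fold change of HSPA5 was -0.08 (SE 0.05, 95% interval -0.20 to 0.03, adjusted p = 0.26 by edgeR's quasi-likelihood test), which is 0.87-fold to 1.02-fold. With library totals HSPA5 was called lower (-0.16, adjusted p = 0.041 by edgeR's quasi-likelihood test), as it was on both FPKM scales (-0.15, adjusted p = 0.047 by limma).

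HSP90B1 encodes GRP94, the ER member of the HSP90 family. HSP90B1 was at 794, 836 and 786 CPM in the control and 722, 780.5 and 735 CPM with pristimerin, again with no overlap. The log2 fold change of HSP90B1 was -0.11 (SE 0.06, 95% interval -0.23 to 0.01, adjusted p = 0.15 by edgeR's quasi-likelihood test). It was called lower with library totals (-0.18, adjusted p = 0.022 by edgeR's quasi-likelihood test), with upper-quartile scaling (-0.17, adjusted p = 0.03) and on both FPKM scales (-0.18, adjusted p = 0.044 and 0.045 by limma). SDF2L1, which encodes an ER protein that works with BiP and its co-chaperones, was at 39.3, 34.2 and 45.8 CPM in the control and 45.1, 36.1 and 41.6 CPM with pristimerin. These ranges overlapped almost fully, and its interval was -0.17 to 0.26.

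HYOU1 encodes GRP170, a large chaperone related to HSP70 that also exchanges the nucleotide of BiP. It lies on chromosome 11 (119044188 to 119057227, minus strand, hg38). HYOU1 was at 332, 310.1 and 316 CPM in the control and 257, 253 and 264 CPM in the pristimerin libraries. The lowest control stood well above the highest pristimerin library. HYOU1 fell by 19.3% (log2 fold change -0.31, SE 0.06, adjusted p = 0.00063 by edgeR's quasi-likelihood test) and kept its call in all 18 alternative settings. In FPKM, the ratio of HYOU1 to HSPA5 was 0.703, 0.643 and 0.688 in the control and 0.587, 0.558 and 0.594 with pristimerin, which did not overlap.

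**Figure D2:**
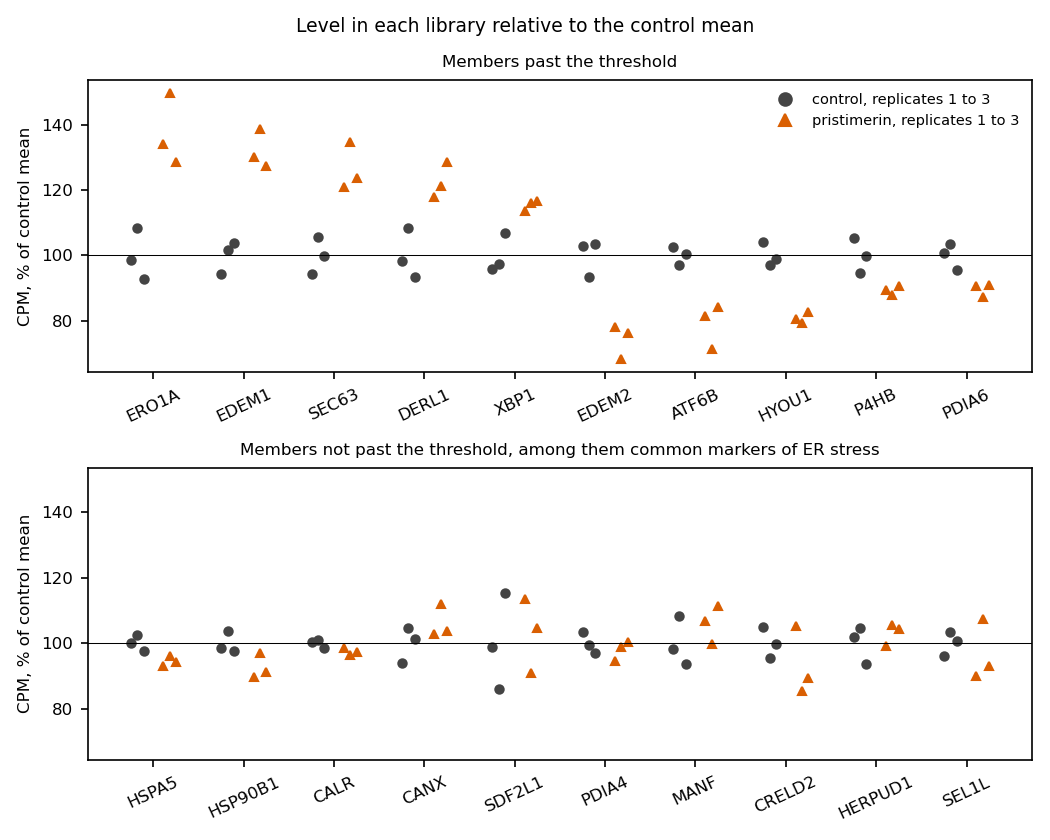
CPM of single libraries as a percentage of the control mean of each gene, for the 10 members called higher or lower (top) and 10 members that were not called (bottom), with control and pristimerin libraries in separate colours. For the called genes the 2 groups of points do not overlap, and ERO1A lies farthest above 100% and EDEM2 farthest below.

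The lectin chaperones and their folding check showed 0 of 4 genes called, beside the 14.5% higher and 15.1% lower of all genes. CALR (calreticulin) and CANX (calnexin) bind newly made glycoproteins through their sugars. CALR was at 1087, 1093 and 1066 CPM in the control and 1066, 1042 and 1052 CPM in the pristimerin libraries. The lowest control and the highest pristimerin library both round to 1066 CPM, and the interval of its log2 fold change was -0.15 to 0.07. CANX was at 1098, 1222 and 1182 CPM in the control and 1201, 1308 and 1210.2 CPM with pristimerin, with an interval of -0.04 to 0.21. UGGT1, the glucosyltransferase that marks misfolded glycoproteins for another round, had an interval of -0.02 to 0.25, and its relative UGGT2 one of -0.21 to 0.19. CALR was the most abundant of the 39 per length, at a mean of 381 FPKM, followed by P4HB at 116 and CANX at 87.3 FPKM. In control CPM, which is not scaled by length, P4HB (1362) and CANX (1167) were above CALR (1082).

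Of the 6 disulfide oxidoreductases, ERO1A was higher and P4HB and PDIA6 were lower, beside the 14.5% higher and 15.1% lower of all genes. ERO1A encodes the oxidase that passes electrons from protein disulfide isomerases to oxygen. It lies on chromosome 14 (52639915 to 52695900, minus strand, hg38). ERO1A was at 64.3, 70.6 and 60.5 CPM in the control and 87.3, 97.4 and 83.7 CPM in the pristimerin libraries. The lowest pristimerin library was above the highest control. ERO1A rose 1.37-fold (log2 fold change 0.46, SE 0.08, adjusted p = 0.00026 by edgeR's quasi-likelihood test), the largest increase among the 39, and was called in each alternative setting.

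ERO1B encodes the second such oxidase, and was the least abundant of the 39 per length at a mean of 0.918 FPKM. ERO1B was at 12.0, 16.3 and 17.5 CPM in the control and 11.8, 14.4 and 12.5 CPM with pristimerin. Control replicate 1 lay among the pristimerin libraries. Its log2 fold change was -0.24 (SE 0.13, 95% interval -0.51 to 0.03, adjusted p = 0.17 by edgeR's quasi-likelihood test), and without control replicate 1 it was -0.39 (adjusted p = 0.014). ERO1B overlaps GPR137B on the opposite strand, which averaged 8.54 CPM over the 6 libraries (relative to library totals, as for the other overlapping genes). The FPKM ratio of ERO1A to ERO1B was 10.9, 8.80 and 7.06 in the control and 15.0, 13.8 and 13.7 with pristimerin, with no overlap.

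P4HB encodes PDI, the best known protein disulfide isomerase, and PDIA6 a further member of that family. P4HB was at 1436, 1291 and 1360.3 CPM in the control and 1217, 1197 and 1235 CPM in the pristimerin libraries. PDIA6 was at 301, 309.8 and 286 CPM in the control and 271, 261 and 272 CPM with pristimerin. For both genes all pristimerin libraries lay below all controls. P4HB fell by 10.7% (log2 fold change -0.16, SE 0.06, adjusted p = 0.037 by edgeR's quasi-likelihood test) and PDIA6 fell by 10.3% (-0.16, SE 0.06, adjusted p = 0.049). Both calls sat near the threshold. P4HB was not called without control replicate 1 (adjusted p = 0.16 by edgeR's quasi-likelihood test), control replicate 3 (0.13), pristimerin replicate 1 (0.11), pristimerin replicate 2 (0.089) or pristimerin replicate 3 (0.11), or without the filter on low counts (0.064). PDIA6 was not called when any single library was left out, with adjusted p from 0.089 to 0.15 by edgeR's quasi-likelihood test, nor without the filter (0.12), with DESeq2 size factors (0.063) or with DESeq2 (0.069). Without control replicate 3, or without any one of the pristimerin libraries, the number of ER genes called lower was 3 in place of 5. Over all genes that number also went down, from 2313 to between 1534 and 1864 in these settings. PDIA3 and PDIA4, 2 more isomerases, had intervals of -0.24 to 0.03 and -0.16 to 0.09. PDIA3 was called lower with library totals (-0.18, adjusted p = 0.044 by edgeR's quasi-likelihood test).

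MANF and CRELD2 encode small ER proteins that are secreted under ER stress and are commonly induced with BiP. MANF was at 35.8, 39.5 and 34.1 CPM in the control and 38.9, 36.4 and 40.6 CPM in the pristimerin libraries. CRELD2 was at 45.0, 40.9 and 42.7 CPM in the control and 45.1, 36.6 and 38.3 CPM with pristimerin. Neither pair of groups was apart, with intervals of -0.09 to 0.25 for MANF and -0.28 to 0.08 for CRELD2. CRELD2 overlaps ALG12 on the opposite strand, at 19.0 CPM.

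In ER-associated degradation, 2 of 8 genes were higher and 1 was lower, beside the 14.5% higher and 15.1% lower of all genes. The EDEM genes encode proteins that act on the mannose residues of misfolded glycoproteins and route them to degradation. EDEM1 lies on chromosome 3 (5187646 to 5219958, plus strand) and EDEM2 on chromosome 20 (35115364 to 35147336, minus strand, both hg38). EDEM1 was at 279, 300.1 and 307 CPM in the control and 384, 409.6 and 376 CPM in the pristimerin libraries. EDEM2 was at 50.3, 45.6 and 50.6 CPM in the control and 38.2, 33.4 and 37.3 CPM with pristimerin. Neither gene had overlapping groups, and they lay on opposite sides of the control. EDEM1 rose 1.32-fold (log2 fold change 0.40, SE 0.06, adjusted p = 0.00011 by edgeR's quasi-likelihood test). EDEM2 fell by 25.6% (log2 fold change -0.43, SE 0.08, adjusted p = 0.00059 by edgeR's quasi-likelihood test), the largest decrease of the 39. Both were called in all 18 alternative settings.

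EDEM3 was at 133, 162 and 138 CPM in the control and 142, 162 and 140.5 CPM with pristimerin. Its groups overlapped and its interval was -0.13 to 0.20. The FPKM ratio of EDEM1 to EDEM2 was 1.55, 1.84 and 1.70 in the control and 2.81, 3.43 and 2.82 in the pristimerin libraries. The ratio of EDEM1 to EDEM3 was 5.77, 5.10 and 6.13 in the control and 7.47, 6.99 and 7.38 with pristimerin. Neither ratio overlapped between the groups. These pairs were set side by side with their values known. The ratio of EDEM3 to EDEM2 did not overlap either, whereas those of PDIA4 to PDIA3 and of PDIA6 to P4HB did.

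**Figure D3:**
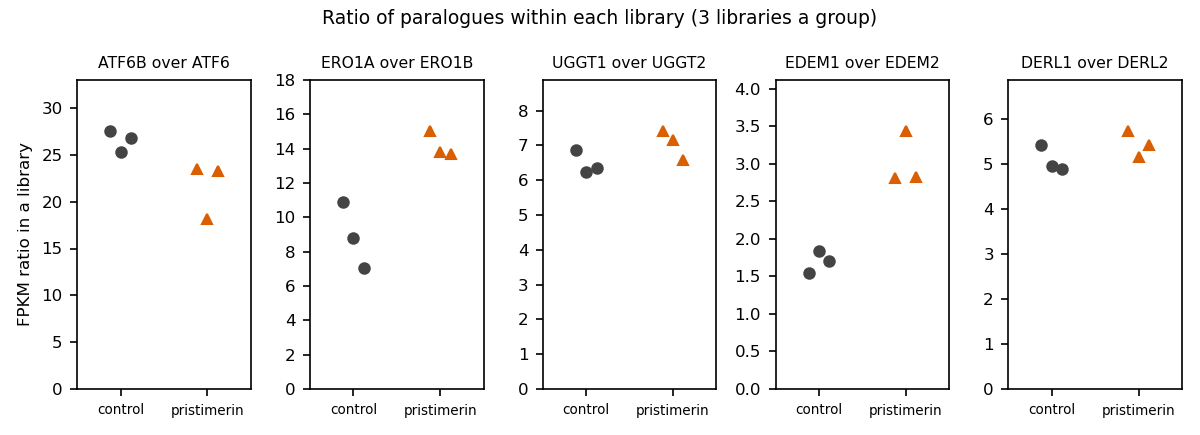
Ratio of deposited FPKM between related ER genes in each of the 6 libraries (vertical axis, 1 panel a pair). The pristimerin libraries lie apart from the controls for ATF6B over ATF6, ERO1A over ERO1B and EDEM1 over EDEM2, and overlap them for UGGT1 over UGGT2 and DERL1 over DERL2. Each pair that lies apart holds a gene already called by itself, so the ratio is no separate result.

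The derlins are membrane proteins of the ER through which degradation substrates return to the cytosol. DERL1 was at 92.6, 102 and 87.9 CPM in the control and 111, 114 and 121 CPM in the pristimerin libraries, with no overlap. DERL1 rose 1.23-fold (log2 fold change 0.29, SE 0.07, adjusted p = 0.0036 by edgeR's quasi-likelihood test). It missed the threshold on both FPKM scales (0.21 on log2(FPKM + 1), adjusted p = 0.053 by limma) and kept its call in the other 16 of the 18 alternative settings. DERL1 overlaps TBC1D31 on the opposite strand, at 34.9 CPM. DERL2 was at 15.7, 18.8 and 16.5 CPM in the control and 17.9, 20.4 and 20.4 CPM with pristimerin. Control replicate 2 lay within the pristimerin range, and DERL2 was not called (log2 fold change 0.19, adjusted p = 0.15 by edgeR's quasi-likelihood test) except without that library (0.28, adjusted p = 0.049). DERL2 overlaps MIS12 on the opposite strand, at 12.5 CPM.

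The other 3 genes of degradation were not called. HERPUD1 organises the degradation complex and is a sensitive marker of ER stress. HERPUD1 was at 35.1, 36.0 and 32.2 CPM in the control and 34.1, 36.3 and 35.9 CPM with pristimerin, with an interval of 0.92-fold to 1.15-fold. SEL1L and SYVN1 encode the scaffold and the ubiquitin ligase of that complex, with intervals of -0.20 to 0.10 and -0.19 to 0.11. SYVN1 shares its position with MRPL49 on the opposite strand and FAU on the same strand, at 69.7 and 347 CPM.

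In the SEC61 translocon, SEC63 was higher and the 3 channel subunits were not called, beside the 14.5% higher of all genes. SEC63 encodes a membrane co-chaperone that brings BiP to the channel. It lies on chromosome 6 (107867756 to 107958208, minus strand, hg38). SEC63 was at 269.8, 302 and 285 CPM in the control and 345, 385 and 353 CPM in the pristimerin libraries. All pristimerin libraries lay above all controls. SEC63 rose 1.26-fold (log2 fold change 0.34, SE 0.06, adjusted p = 0.00074 by edgeR's quasi-likelihood test) in the main setting and was called in all 18 others.

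SEC61A1 encodes the pore. SEC61A1 was at 409.6, 387 and 396 CPM in the control and 393, 374 and 383 CPM with pristimerin, with an interval of -0.17 to 0.07. The small subunits SEC61B and SEC61G had intervals of -0.31 to 0.04 and -0.29 to 0.06. All 3 had overlapping groups. SEC61A1 overlaps RUVBL1 on the opposite strand, at 101 CPM.

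The 4 subunits of the translocon-associated protein complex and the 3 listed subunits of the signal peptidase gave 0 calls of 7, beside the 29.6% called of all genes. SEC11A and SEC11C of the signal peptidase are in the wider list. SEC11A was not called (log2 fold change -0.05) and SEC11C was lower (-0.37). In the translocon-associated protein complex, SSR1 and SSR3 had log2 fold changes of 0.11 each, and SSR2 and SSR4 had -0.10 and -0.20. SSR4 was at 113, 108 and 129 CPM in the control and 109, 85.0 and 111 CPM with pristimerin, with replicate 2 the lowest of each group. It had an adjusted p of 0.11 by edgeR's quasi-likelihood test, and was called lower with library totals (-0.27, adjusted p = 0.032), with upper-quartile scaling (-0.26, adjusted p = 0.048) and without the filter on low counts (-0.18, adjusted p = 0.046). SSR4 overlaps IDH3G on the opposite strand, at 65.0 CPM. SPCS1, SPCS2 and SPCS3 of the signal peptidase had log2 fold changes of 0.10, 0.05 and 0.10. SPCS1 was at 91.5, 94.2 and 91.8 CPM in the control and 97.6, 104 and 96.7 CPM with pristimerin, which did not overlap, and its interval was -0.03 to 0.23. SPCS1 overlaps GLT8D1 and NEK4 on the opposite strand, at 48.7 and 41.0 CPM.

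For the 29 ER genes that were not called, the 95% intervals lay between -0.51 and 0.40 on the log2 scale, and 28 of the 29 stayed within 0.5 of no change. A p that misses the threshold does not show that the levels were equal, and the intervals give the sizes that these libraries leave possible. The share of all counts held by the 39 genes was 0.956%, 0.984% and 0.949% in the control and 0.896%, 0.916% and 0.894% in the pristimerin libraries. That share was lower in every pristimerin library, but with TMM scaling it was 0.932%, 0.955% and 0.934% in the control and 0.912%, 0.941% and 0.922% with pristimerin, and the groups overlapped. P4HB, CANX and CALR together made up 37.7% to 38.8% of it.

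**Figure D4:**
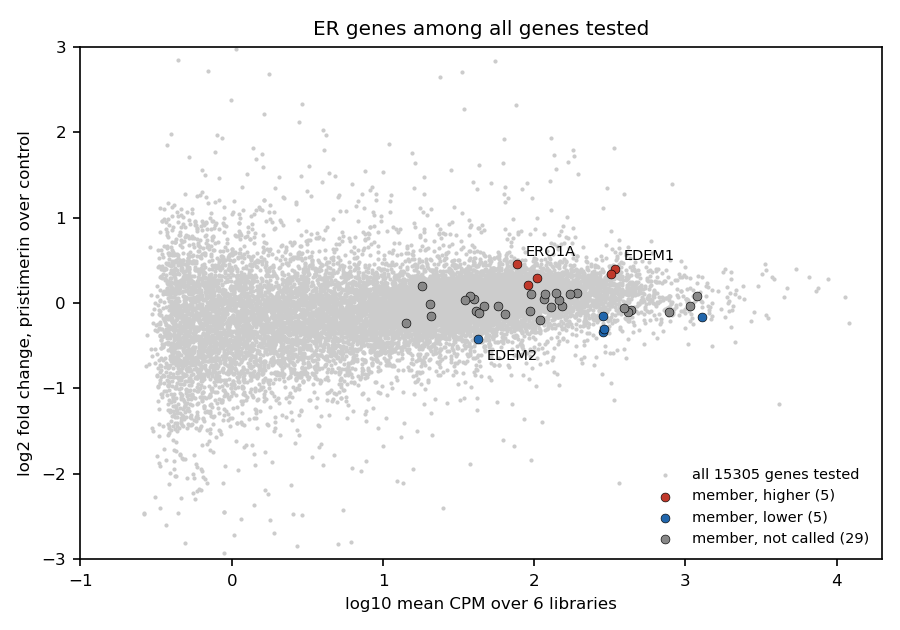
Log2 fold change (vertical axis) against log10 mean CPM (horizontal axis) for the 15305 genes tested in grey, with the 39 ER genes in colour. The ER genes lie between -0.43 and 0.46, in the middle of the cloud, and 15 genes lie outside the axes.

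Levels per length spread over a wide range within the list. The means over all 6 libraries ran from 0.918 FPKM for ERO1B to 381 FPKM for CALR. Apart from ATF6B at 78.2 FPKM and XBP1 at 30.0 FPKM, the regulators were among the least abundant, with ATF6 at 3.24 and ERN1 at 1.09 FPKM. The abundant chaperones HSPA5 and HSP90B1 were at 67.2 and 59.3 FPKM. Of the genes called, DERL1 and ERO1A were the lowest in FPKM, at means of 15.0 and 10.2. This order between genes depends on the gene lengths behind the deposited FPKM, which were not checked. In CPM it differed. ATF6B averaged 316 CPM in the control, below HSPA5 at 451 and HSP90B1 at 805 CPM.

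**Figure D5:**
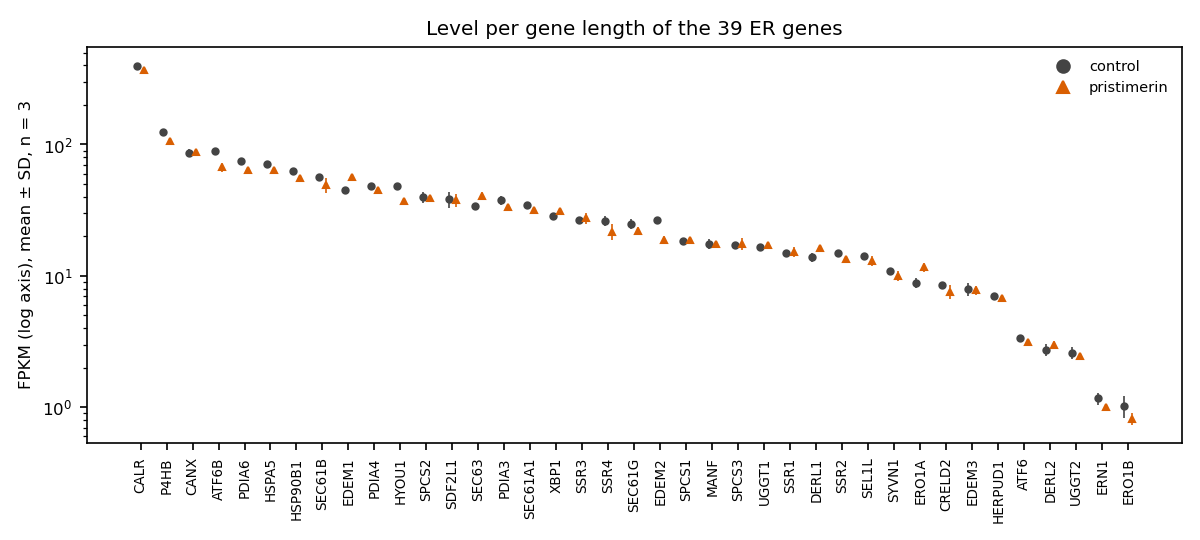
Mean FPKM with SD (n = 3 libraries a group) of the 39 ER genes on a log axis, in order of level, for control and pristimerin. CALR is highest at a mean of 381 FPKM over all libraries and ERO1B lowest at 0.918 FPKM, and the groups lie close together at every level.

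Replicate 2 moved with many of the ER genes. It was the highest library of its group in both groups for 16 of the 39 (41.0%), beside 22.8% of all genes tested, and the lowest in both for 9 (23.1%), beside 20.1% of all genes. HSPA5, HSP90B1, CANX, ERO1A and SEC63 were among the 16, and ATF6B, HYOU1, P4HB and EDEM2 among the 9. Without replicate 2 of both groups the log2 fold changes were 0.46 for ERO1A, 0.38 for EDEM1, 0.33 for SEC63, 0.36 for DERL1 and 0.19 for XBP1. They were -0.41 for EDEM2, -0.29 for ATF6B, -0.31 for HYOU1 and -0.19 for P4HB, and all 9 of these were still called. PDIA6 was not (-0.11, adjusted p = 0.11 by edgeR's quasi-likelihood test).

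The remaining machinery of the ER was described with a wider list of 93 genes, of which 92 had a row and 91 were tested. In it 12 genes were higher (13.2%), 16 were lower (17.6%) and 63 were not called, with a median log2 fold change of -0.03. These shares lay close to the 14.5% and 15.1% of all genes. With library totals 9 were higher and 25 lower, with upper-quartile scaling 9 and 22, and on log2(FPKM + 1) 7 and 19. The number lower was 6 without control replicate 3, 7 without pristimerin replicate 1 and 6 without pristimerin replicate 3. Over all genes the number lower also went down, from 2313 to 1534, 1844 and 1647 in these settings. UBE2J1, an ER ubiquitin-conjugating enzyme of the degradation pathway, changed most. UBE2J1 was at 109, 112 and 107 CPM in the control and 193, 223 and 198 CPM in the pristimerin libraries, which did not overlap. UBE2J1 rose 1.87-fold (log2 fold change 0.90, SE 0.07, adjusted p = 2.7e-08 by edgeR's quasi-likelihood test).

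The next largest increases of the wider list were smaller. They were in CREB3L2, a membrane-bound transcription factor cut like ATF6 (log2 fold change 0.39), CALU, a calcium-binding protein of the secretory pathway (0.35), KRTCAP2, a subunit of oligosaccharyltransferase (0.34), and SRP72, a subunit of the signal recognition particle (0.33). The largest decreases were in CALCOCO1, an ER-phagy receptor (-0.47), EMC9, of the ER membrane protein complex (-0.39), MAN1B1, an ER mannosidase (-0.39), DNAJB9, a co-chaperone of BiP that is known to be induced by XBP1 (-0.39), and SEC11C, a catalytic subunit of the signal peptidase (-0.37). All of these had an adjusted p under 0.05 by edgeR's quasi-likelihood test. EMC9 overlaps PSME1 on the opposite strand, at 172 CPM. DNAJB9 was at 21.8, 27.6 and 23.6 CPM in the control and 17.4, 20.3 and 18.2 CPM with pristimerin, which did not overlap (SE 0.10, adjusted p = 0.0089 by edgeR's quasi-likelihood test).

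Within the wider list, the 8 genes of the signal recognition particle and its receptor had 2 higher and 0 lower, with a median of 0.15. The 7 further genes of translocation and leader cleavage had 0 higher and 4 lower (TRAM1, TRAM2, SEC11C and HSPA13), with a median of -0.27. The 11 tested genes of oligosaccharyltransferase had 1 higher and 1 lower, with a median of -0.06. For comparison, of 10 cytosolic chaperones of the HSP70 and HSP110 families 1 was higher and 8 were lower, with a median of -0.64. Of 16 tested genes of the integrated stress response 4 were higher and 3 lower, with a median of -0.00. Over all genes tested 14.5% were higher and 15.1% lower. The difference of any of these lists from all genes or from the ER genes was not tested.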

How the data were processed

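THP-1 libraries were grouped by treatment label, 3 control and 3 pristimerin. RNA was, per the labels' protocols, poly(A)-selected and made into strand-specific paired-end libraries. The genome build is hg38, per the submitters' processing notes. The aligner and the counter were not given in the sources used here, nor was the strand setting, so reads of genes that overlap on opposite strands may be mixed. This touches 8 of the 39 ER genes, which overlap a gene with at least 20% of their CPM. Reads shared with pseudogene copies were not examined.

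The deposited counts are whole numbers per gene and library, not normalised. The deposited FPKM values were made by the authors from length and library total, and served for levels, ratios and an alternative test. The totals ran from 19057219 to 30568593 counts, so 3 counts are 0.0981 to 0.157 CPM.

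Counts were filtered with filterByExpr (minimum count 10, minimum total 15), scaled by TMM and tested with edgeR 4.0.16 (glmQLFit, glmQLFTest) in R 4.3.3 on all 15305 genes that passed, with Benjamini-Hochberg adjustment and a threshold of 0.05. The procedure was tested on simulated data. Recovery was required only for changes of 2-fold or more, which 0 of the 39 ER genes reached. Alternatives were library totals, upper-quartile scaling, DESeq2 1.42.0 and its size factors, no filter, a minimum mean of 5 CPM, protein-coding genes alone, limma-voom, limma 3.58.1 on log2(FPKM + 1) and log2(FPKM + 0.1), the replicate number as a block, each library left out, and, chosen after seeing the data, replicate 2 of both groups left out. Counts between replicates differed beyond sampling noise, so no library is a copy of another. Whether the replicates came from separate cultures cannot be told from this.

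The members and lists were chosen with earlier results of these data known. All members are described. Of the wider list, the text names up to 5 genes with the largest positive and up to 5 with the largest negative log2 fold change among those called with a mean of at least 5 CPM. The genes of translocation that fell were named after their values were seen. Promoters came from RefSeq (GRCh38.p14).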

Additional observations from a re-analysis of the deposited data

How the results depend on the processing

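ERO1A, EDEM1 and SEC63 (higher) and ATF6B, HYOU1 and EDEM2 (lower) kept their call in all 18 alternative settings, and of the 29 members not called 20 stayed so. Against 5 members called lower, 9 were with library totals and 8 with the replicate block. Against 5 called higher, 3 were on log2(FPKM + 0.1) and 3 on log2(FPKM + 1). With 1 library left out, 4 to 6 members were higher and 3 to 4 lower. Over all genes 1742 to 2357 were higher and 1534 to 2329 lower in those settings, against 2216 and 2313. In the wider list, against 12 higher and 16 lower, 7 were higher on log2(FPKM + 0.1) and 7 on log2(FPKM + 1), 25 were lower with library totals, and with 1 library left out 10 to 15 were higher and 6 to 16 lower. The causes of these shifts were not tested. With the replicate block, HSP90B1, PDIA3 and SSR4 were also called lower and UGGT1 and SSR3 higher, and no member lost its call. In the wider list 20 were higher. Over all genes the block gave 3150 higher and 2948 lower, against 2216 and 2313 without it. Same-numbered libraries correlated at 0.346, 0.45 and 0.092. Each control correlated best with the pristimerin library of its own number, but pristimerin replicate 3 correlated best with control replicate 1 (0.144). The correlations do not settle whether the numbers pair the libraries, and the main test did not take them to.

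The sign turned in 8 members, none of them called. It turned for SDF2L1 to -0.02 with library totals, -0.02 on log2(FPKM + 0.1), -0.02 on log2(FPKM + 1) and -0.01 with upper-quartile scaling. In the same 4 settings EDEM3 turned to -0.04, -0.03, -0.03 and -0.03, HERPUD1 to -0.03, -0.03, -0.02 and -0.02, and SPCS2 to -0.02, -0.02, -0.02 and -0.01. EDEM3 was at -0.0009 with a minimum of 5 CPM. UGGT2 turned to 0.001 with DESeq2 size factors, 0.01 with DESeq2 and 0.01 with no filter. Without replicate 2 of both groups UGGT2 was at 0.04 and SYVN1 at 0.02. With 1 library left out, ATF6 ran from -0.09 to 0.01, SDF2L1 from -0.05 to 0.17, UGGT2 from -0.08 to 0.06, EDEM3 from -0.03 to 0.13, SEL1L from -0.12 to 0.005 and SYVN1 from -0.09 to 0.03.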
